A study of Mus musculus with 6 samples.

Results

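The genes described here are 10 nuclear genes that keep, copy and transcribe the mitochondrial genome or are grouped with those that do. They are *Tfam*, *Tfb1m*, *Tfb2m*, *Polrmt*, *Polg*, *Polg2*, *Ssbp1*, *Nrf1*, *Ppargc1a* and *Clpp*, chosen by gene symbol, and all 10 were found among the 25631 genes of the deposited table. RNA was sequenced from oocytes collected by puncture of large antral follicles of 14-month-old female ICR mice, after eCG, a gonadotropin that stimulates follicle growth. Mice of the aminophylline group (n = 3 libraries) had 4 mM aminophylline, a methylxanthine that inhibits phosphodiesterases, in its drinking water for 1 week and then water alone for 3 weeks. The control group (n = 3 libraries) was of the same age and drank water without the drug. The number of mice and of oocytes behind a library is not given in the sources used here, and nothing says that the libraries came from separate animals, so the p-values below measure only the spread between these libraries.

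The mitochondrial genome is a small circle that carries genes for subunits of the respiratory chain, and everything that copies or reads it is made from nuclear genes. TFAM coats and bends the DNA and, with TFB2M, places the RNA polymerase POLRMT at the promoters. The same polymerase primes replication, in which POLG is the catalytic subunit of the DNA polymerase, POLG2 its accessory subunit and SSBP1 the protein that covers single strands. NRF1 and the coactivator PGC-1α, the product of *Ppargc1a*, are regulators of such genes in the nucleus, and cAMP signalling is known to induce *Ppargc1a* in liver and muscle. CLPP is a protease of the mitochondrial matrix, and mice without it are infertile. Oocytes hold far more mitochondrial DNA than other cells and pass it to the embryo.

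Promoter sequence was not used to choose the genes, and 6 of the 10 hold the same short motif near a start site. NRF1 and the ETS factor GABP (also called NRF-2) are textbook activators of the nuclear genes of mitochondria. The 7-letter ETS/GABP motif CCGGAAG and the NRF1 core CGCATGCG were searched on both strands in the RefSeq promoter windows (GRCm38.p6), each from 250 bases before a start site to 50 bases after it. All 10 genes matched, with 11 windows in all. The ETS/GABP motif occurred in these 6 genes, compared with 9.93% of the 27025 genes that have a window. Genes that passed the expression filter hold it more often, in 17.5% of their 10347 windows. The NRF1 core occurred in 1 of the 10 genes, *Tfb2m*, compared with 2.07% of all genes and 3.87% of the windows of tested genes. The motifs do not overlap each other in these windows. The following 30-base stretches are shown because they hold the shared letters. Each is written 5′ to 3′ on the strand of the gene, and the capitals mark the motif, which reads CTTCCGG where the match lies on the opposite strand.
Tfam, chr10:71238073-71238102, minus strand: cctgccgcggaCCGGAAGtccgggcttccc
Polg, chr7:79466293-79466322, minus strand: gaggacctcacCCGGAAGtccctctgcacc
Polg2, chr11:106779548-106779577, minus strand: cgggtgacgctCTTCCGGgggcgtggtcta
Polrmt, chr10:79746606-79746635, minus strand: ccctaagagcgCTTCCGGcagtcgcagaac
Ssbp1, chr6:40471410-40471439, plus strand: ggctccgtgcgCCGGAAGcgagccgctggc
Clpp, chr17:56990284-56990313, plus strand: ccgggtgttgtagttCCGGAAGccaagccg
Tfb2m, chr1:179546246-179546275, minus strand: gctaggtcgttCGCATGCGccattcgtaat

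In *Tfam*, *Polg*, *Polg2*, *Polrmt* and *Ssbp1* the ETS/GABP match began 29 to 47 bases before the start site, and in *Clpp* it began 35 bases after it. The NRF1 core of *Tfb2m* began 12 bases after the start site. Neither motif was found in the windows of *Tfb1m*, *Nrf1* and *Ppargc1a*. A match is a run of letters, and binding was not measured here.

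The authors deposited FPKM, which is fragments counted on a gene divided by its length and by the depth of the library. Whole reads could be recovered from the ratios between libraries, and the libraries held 14112341 to 33641283 reads, with control library 2 the shallowest. Of the 25631 genes, 10340 reached 1 FPKM in 3 or more of the 6 libraries and were tested with limma on log2(FPKM + 1), a scale on which the change of low genes is understated. The label was checked against marker genes. All 13 oocyte markers were at 1 FPKM or more in some library, and *Gdf9*, *Bmp15* and *Zp3*, which encode oocyte growth factors and a coat protein of the egg, were at 330 to 5684 FPKM. Of 9 granulosa and cumulus markers, 6 were under 1 FPKM in every library, and the summed level was 15.7 to 23.4 FPKM in control and 17.3 to 21.8 FPKM in aminophylline libraries. Summed theca markers were at 2.11 to 3.20 and 3.07 to 3.85 FPKM, and the stroma, endothelium and erythrocyte markers at no more than 8.96 FPKM in any library. Control library 1 stood apart in the macrophage markers, which summed to 258 FPKM there and to 82.8 to 104 FPKM in the other 5 libraries. In those 5 libraries most of the sum came from a single marker, *C1qb*, at 79.2 to 99.8 FPKM. *C1qb* was lowest in control library 1, at 72.3 FPKM. The macrophage gene *Lyz2* was at 66.4 FPKM in control library 1 and at no more than 0.573 FPKM elsewhere. In bulk RNA, fewer cells of a type and less RNA per cell cannot be told apart.

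The 10 genes covered a wide range of levels in these oocytes, from *Ssbp1* at 37.5 ± 3.48 FPKM (mean ± SD, n = 3 control libraries) to *Ppargc1a* at 0.0109 FPKM. In control libraries the order of mean FPKM was *Ssbp1*, *Clpp*, *Tfb1m*, *Polrmt*, *Nrf1*, *Tfb2m*, *Tfam*, *Polg2*, *Polg* and *Ppargc1a*. The ranges of *Tfb1m* and *Polrmt*, of *Polrmt* and *Nrf1*, and of *Tfb2m* and *Tfam* overlapped, and all other neighbours were apart. In aminophylline libraries *Polrmt* stood above *Tfb1m* and *Tfam* above *Tfb2m*, with overlapping ranges in both pairs. *Ssbp1* lay above 80.5% of the tested genes in mean FPKM, *Tfam* above 37.2% and *Polg2* above 6.81%. The catalytic subunit *Polg* and the coactivator *Ppargc1a* did not pass the filter and were reported by their values, so 8 of the 10 genes were tested. The order rests on the gene lengths that the authors used. These were 14628 bases for *Nrf1*, 10223 for *Polg* and 15946 for *Ppargc1a*, where the longest GENCODE transcripts have 4042, 7837 and 6464 bases. For *Tfb1m* the lengths were 4555 and 2419 bases. With the GENCODE lengths, an alternative chosen after the values were seen, the highest control means were 29.8 FPKM for *Nrf1*, 29.7 for *Clpp*, 25.3 for *Tfb1m* and 23.0 for *Ssbp1*, followed by *Polrmt*, *Tfb2m*, *Tfam*, *Polg2*, *Polg* and *Ppargc1a* in that order. The order of the first 5 genes thus depends on the length, while a difference between groups in one gene does not change direction with it.

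**Figure D1:**
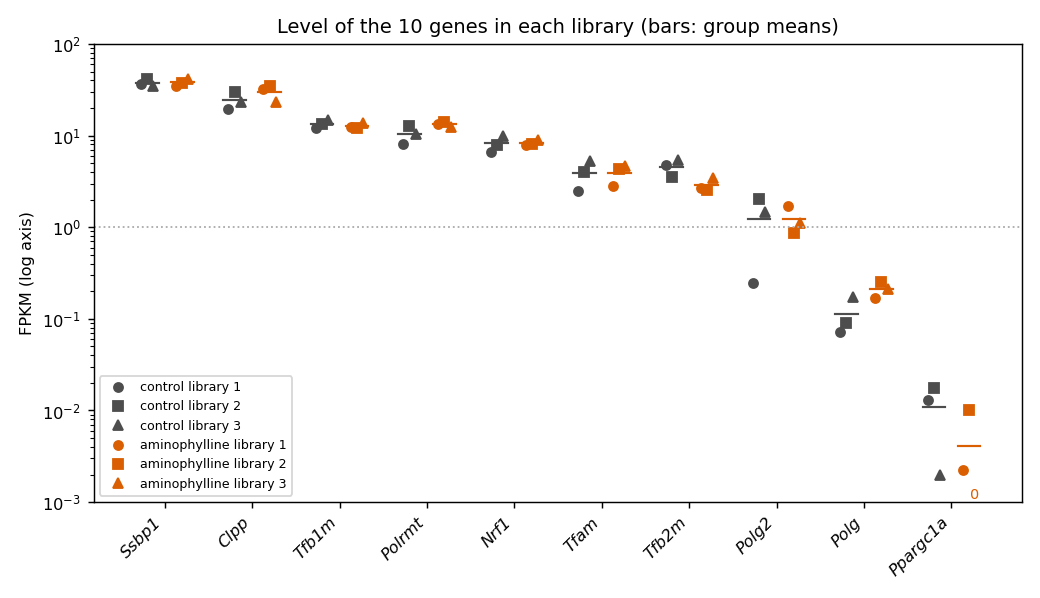
FPKM of the 10 genes (log axis) in each library, with control libraries in grey, aminophylline libraries in orange, bars at the group means and a dotted line at 1 FPKM. The genes run from *Ssbp1* at 34.8 to 41.5 FPKM down to *Ppargc1a* at 0 to 0.0178 FPKM, and *Tfb2m* is the gene above the dotted line whose groups do not overlap.

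With aminophylline, *Tfb2m* was lower and no other of the 8 tested genes passed an unadjusted p of 0.05. That is 1 of 8 lower, where 2.84% of all tested genes were lower at that level, and 0 of 8 higher, where 4.41% of all tested genes were higher. None of the 8 passed a Benjamini-Hochberg adjusted p of 0.05 in limma, and neither did any of the 10340 tested genes (0%), of which 750 had an unadjusted p under 0.05. Over all genes, voom on the recovered reads gave 761 unadjusted and 0 adjusted calls. Limma with the replicate number as a block gave 1467 unadjusted calls, 9.88% of all tested genes higher and 4.3% lower, and 47 adjusted calls (0.455%). With the block *Tfb2m* was again the only call among the 8 genes, and it did not pass the adjusted threshold. The median log2 fold change of the 8 genes was 0.023, compared with 0.095 over all tested genes. The FPKM ranges of the groups were apart for 1 of the 8 genes, which was lower, where 4.96% of all tested genes were lower and 7.51% higher without overlap.

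The transcription genes come first. *Tfb2m* (chr1:179528052-179546305) encodes the factor that opens the promoter for the mitochondrial RNA polymerase, and its FPKM was 4.82, 3.51 and 5.42 in control libraries 1, 2 and 3 and 2.71, 2.56 and 3.40 in aminophylline libraries 1, 2 and 3. All aminophylline libraries lay below all control libraries, with the highest aminophylline value just under the lowest control value. The mean was 4.58 ± 0.979 FPKM in control and 2.89 ± 0.449 FPKM in aminophylline oocytes. The log2 fold change was -0.51 (SE 0.226, 95% interval -1.01 to -0.014), a fold of 0.702 on the log2(FPKM + 1) scale, with an unadjusted limma p of 0.0449 and a Benjamini-Hochberg adjusted p of 0.684. The reads behind these values numbered 439, 134 and 467 in control and 207, 172 and 282 in aminophylline libraries, so the gene was counted well above the limit of a few reads. The difference was negative in every alternative fit, a sign that leaving out a library could not change, since the groups do not overlap. It passed an unadjusted p of 0.05 in 10 of the 16 limma and voom fits that included the gene. These fits all drew on the same 6 libraries. Without control library 1, in which the macrophage markers were highest, it was -0.47, with an unadjusted limma p of 0.0967, and without control library 3 it was -0.40, with an unadjusted limma p of 0.115. It also lost the threshold when any 1 of the aminophylline libraries was left out, with an unadjusted limma p from 0.0514 to 0.142.

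*Tfb1m* (chr17:3519250-3557796) is the paralog that methylates the small mitochondrial ribosomal RNA. Its FPKM was 12.1, 13.5 and 14.7 in control and 12.3, 12.2 and 13.6 in aminophylline libraries. These groups overlapped almost fully, with a log2 fold change of -0.072 (95% interval -0.48 to 0.34, limma, adjusted p = 0.928). The ratio of the paralogs within a library does not depend on how libraries are scaled, and gene length changes its level but not its log2 difference between groups. The ratio of *Tfb2m* to *Tfb1m* FPKM was 0.398, 0.259 and 0.369 in control and 0.219, 0.210 and 0.2505 in aminophylline libraries. All 3 aminophylline ratios lay below all 3 control ratios. On the log2 scale the mean ratio was -1.57 ± 0.330 in control and -2.15 ± 0.132 in aminophylline oocytes (SD, n = 3). The difference of -0.57 had an exact two-sided permutation p of 0.1, the smallest that 3 against 3 libraries can give, and 0.3 adjusted over the 3 ratios computed.

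*Polrmt* (chr10:79736125-79746604), the mitochondrial RNA polymerase itself, was at 8.07, 12.7 and 10.3 FPKM in control and at 13.5, 13.96 and 12.5 FPKM in aminophylline libraries. Control library 2 reached into the aminophylline range, while control libraries 1 and 3 lay below it. The log2 fold change was 0.35 (SE 0.210, 95% interval -0.11 to 0.82, limma, adjusted p = 0.726). Without control library 2, the shallowest library, it was 0.50 with an unadjusted limma p of 0.0338 (adjusted p = 0.275). That fit called 865 of all 10340 tested genes higher and 752 lower, where the fit on all 6 libraries called 456 and 294. Without control library 1, which stood apart in the macrophage markers, the log2 fold change of *Polrmt* was 0.20 with an unadjusted limma p of 0.344.

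*Tfam* (chr10:71225468-71238328), the packaging and transcription factor of the mitochondrial genome, was at 2.51, 4.001 and 5.30 FPKM in control and at 2.81, 4.28 and 4.66 FPKM in aminophylline libraries. The means were 3.93 ± 1.40 and 3.92 ± 0.976 FPKM, and the spread within each group was far larger than the difference between them. The log2 fold change of 0.015 (SE 0.270, 95% interval -0.58 to 0.61, limma, adjusted p = 0.991) has no stable sign, since it was negative when the libraries were rescaled to a common sum, quantile normalized or centred on the median. The interval allows a moderate change in either direction. Of all tested genes, *Dcun1d2*, *Cyb561a3* and *Elf3* followed *Tfam* most closely over the 6 libraries, with a root mean square difference of 0.0558, 0.0653 and 0.0754 on the centred log2 scale, where the median tested gene differed by 0.344.

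Of the replication genes among the 10, *Ssbp1* (chr6:40471414-40481823) was the most abundant and the steadiest. Its FPKM was 36.3, 41.4 and 34.8 in control and 34.8, 37.8 and 41.5 in aminophylline libraries. The groups covered the same range, and the log2 fold change was 0.020 (SE 0.167, 95% interval -0.35 to 0.39, limma, adjusted p = 0.979). It had 16433 reads in all, and the sign again depended on the scaling.

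*Polg2* (chr11:106768204-106779537) was scarce, at 0.245, 2.02 and 1.46 FPKM in control and 1.68, 0.870 and 1.12 FPKM in aminophylline libraries. The lowest and the highest value both came from the control group, and only 13 reads lay behind the value of control library 1. The log2 fold change was 0.068 (95% interval -0.60 to 0.74, limma, adjusted p = 0.963), and it was -0.31 without control library 1. *Polg* (chr7:79446231-79467911), the catalytic subunit, was at 0.0727, 0.0901 and 0.175 FPKM in control and 0.170, 0.253 and 0.214 FPKM in aminophylline libraries, from 13 to 67 reads per library. Its lowest aminophylline value lay just under the highest control value. *Polg* was under the filter in every library. In the fit without a filter its log2 fold change was 0.12 with an unadjusted limma p of 0.04697 (Benjamini-Hochberg adjusted p = 0.836), on a scale that understates the change of a gene this low. The ratio of *Polg2* to *Polg* FPKM was 3.37, 22.4 and 8.30 in control and 9.92, 3.44 and 5.22 in aminophylline libraries. These ratios overlapped, the mean log2 difference was -0.60 with an exact two-sided permutation p of 0.7, and it turned to 0.09 without control library 2.

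The nuclear regulators differed strongly in level. *Nrf1* (chr6:30047985-30153458) was at 6.70, 7.96 and 10.02 FPKM in control and 7.89, 8.06 and 8.95 FPKM in aminophylline libraries. All aminophylline values lay inside the control range, and the log2 fold change was 0.025 (SE 0.213, 95% interval -0.44 to 0.49, limma, adjusted p = 0.979), with a sign that depended on the scaling. *Ppargc1a* (chr5:51454249-52115853) was close to absent from these libraries, with 7, 4 and 1 reads in control and 1, 4 and 0 reads in aminophylline libraries, or 17 reads in all. A difference in *Ppargc1a* was not detectable at this depth.

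*Clpp* (chr17:56990264-56996371), the peptidase of the matrix protease ClpXP, was at 19.5, 29.6 and 23.4 FPKM in control and 32.0, 34.4 and 23.5 FPKM in aminophylline libraries. Aminophylline libraries 1 and 2 lay above all controls and aminophylline library 3 lay among them. The log2 fold change was 0.30 (SE 0.214, 95% interval -0.17 to 0.77, limma, adjusted p = 0.733). The *Clpp* value rested on single libraries, being 0.16 without control library 1, 0.20 without aminophylline library 2, 0.45 without control library 2 and 0.46 without aminophylline library 3. *Clpx*, the unfoldase that feeds this peptidase, was tested as a partner and had a log2 fold change of -0.23 (adjusted p = 0.806 in limma). The ratio of *Clpx* to *Clpp* was 0.696, 0.390 and 0.952 in control and 0.352, 0.349 and 0.658 in aminophylline libraries. Control library 2 and aminophylline library 3 made these ratios overlap, and the mean log2 difference of -0.56 had an exact two-sided permutation p of 0.2.

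**Figure D2:**
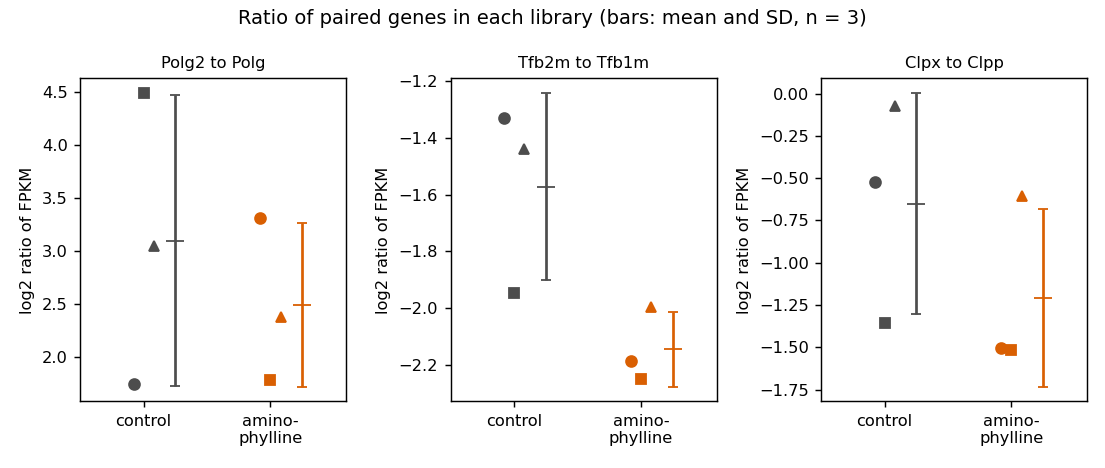
Log2 ratio of FPKM for 3 gene pairs in each library (circle, square and triangle for libraries 1, 2 and 3), with the mean and SD of each group (n = 3). The ratios of *Tfb2m* to *Tfb1m* do not overlap between groups (-1.57 ± 0.330 against -2.15 ± 0.132), while those of *Polg2* to *Polg* and of *Clpx* to *Clpp* do.

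The libraries differed in how often they held the lowest value. Control library 1 held the lowest value of 7 of the 10 genes (6 of the 8 tested), while it was the lowest library for 27.2% of all tested genes. The coefficient of variation was smaller in the aminophylline group for 9 of the 10 genes, and for 76.4% of all tested genes. *Polrmt* was an example, with an SD of 2.31 FPKM in control and 0.727 FPKM in aminophylline libraries. The part of the macrophage markers in control library 1 in these levels was not tested.

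The genes around these 10 were taken from 6 lists, with 70 genes, of which 55 were tested. By unadjusted p, 2 of the 55 were higher (4.41% of all tested genes) and 4 were lower (2.84% of all tested genes), and none passed the adjusted threshold in limma. The lower calls by p depended on which libraries were included. In the 4 genes called lower, every aminophylline value lay below every control value, so leaving out a library could not change the sign. Their log2 fold changes were negative in every fit. They ran from -0.65 to -0.38 for *Mterf3*, -0.41 to -0.29 for *Nsun4*, -0.78 to -0.29 for *Trmt10c* and -0.83 to -0.37 for *Fastkd2*. The lists gave 8 higher and 0 lower without control library 3, where all 10340 tested genes gave 1219 higher and 255 lower. Without control library 1 the lists gave 1 higher and 1 lower (214 and 155 over all tested genes). Without control library 2 they gave 2 higher and 7 lower (865 and 752). Without aminophylline library 1, 2 or 3 they gave 3, 1 and 1 higher and 0 lower. All tested genes then gave 541, 203 and 249 higher and 163, 126 and 179 lower. The counts over all tested genes thus also moved with the library left out. The 55 tested genes of the lists had a median log2 fold change of 0.11, compared with 0.095 over all tested genes. When limma was given the replicate number as a block, 10 of the 55 passed an unadjusted p of 0.05, 6 of them higher and 4 lower, where the same fit had 9.88% of all tested genes higher and 4.3% lower. The genes added with the block were *Lonp1*, *Afg3l2*, *Atad3a*, *Slirp* and *Mterf1a*, and *Nsun4* was lost, with an unadjusted limma p of 0.0641 in the blocked fit. Apart from *Lonp1*, these were named after their values were seen, and *Mterf1a* has a close copy, *Mterf1b*, with which it may share reads.

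In the replication list, 1 of 8 tested genes was higher (4.41% of all tested genes) and none lower (2.84%). This was *Rnaseh1*, which encodes the nuclease that removes RNA paired with DNA, in the nucleus and at primers of mitochondrial DNA replication. Its FPKM was 35.9, 34.7 and 44.2 in control and 60.4, 55.9 and 69.0 in aminophylline libraries. The groups were well apart, with a log2 fold change of 0.68 (SE 0.172, 95% interval 0.30 to 1.06), an unadjusted limma p of 0.00229 and a Benjamini-Hochberg adjusted p of 0.651. *Rnaseh1* kept an unadjusted p under 0.05 in 17 of 17 fits, all drawn from the same 6 libraries, with log2 fold changes of 0.60 to 0.79. Its adjusted p over these limma and voom fits ran from 0.0756 to 0.999. *Twnk*, the helicase that works ahead of the polymerase, had a log2 fold change of -0.066 (adjusted p = 0.954 in limma). None of the 8 tested genes of nucleotide supply passed the test.

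The elongation and termination family had 1 of 5 tested genes lower (2.84% of all tested genes) and none higher (4.41%). *Mterf3*, a repressor of mitochondrial transcription initiation, was at 5.46, 5.29 and 7.65 FPKM in control and at 3.87, 3.87 and 3.92 FPKM in aminophylline libraries. Every aminophylline library lay below every control, with a log2 fold change of -0.53 and an unadjusted limma p of 0.0331 (adjusted p = 0.682). The elongation factor *Tefm* had a log2 fold change of 0.19 (adjusted p = 0.801 in limma). Of 21 tested genes of RNA processing, 3 were lower (2.84% of all tested genes) and none higher (4.41%). *Trmt10c*, a subunit of the mitochondrial RNase P that frees transfer RNAs from the transcript, was at 22.8, 16.9 and 34.5 FPKM in control and 14.5, 16.4 and 16.9 FPKM in aminophylline libraries, with a log2 fold change of -0.55 and an unadjusted limma p of 0.0458 (adjusted p = 0.684). *Fastkd2*, an RNA-binding protein needed for the large mitochondrial ribosomal RNA, was at 18.5, 9.38 and 13.9 FPKM in control and 8.77, 8.73 and 8.36 FPKM in aminophylline libraries, with a log2 fold change of -0.59 and an unadjusted limma p of 0.0341 (adjusted p = 0.682). In both genes the highest aminophylline library lay just below the lowest control library. *Nsun4*, a methyltransferase of the mitochondrial ribosome, was the steadiest of these, at 103, 107 and 106 FPKM in control and 86.2, 86.0 and 79.9 FPKM in aminophylline libraries, with a log2 fold change of -0.32 and an unadjusted limma p of 0.0481 (adjusted p = 0.684). An unadjusted p under 0.05 was reached by *Mterf3* in 13, *Fastkd2* in 11, *Nsun4* in 10 and *Trmt10c* in 9 of 17 fits. *Trmt10c* was at -0.29 without control library 3, with an unadjusted limma p of 0.196, and *Fastkd2* at -0.37 without control library 1, with an unadjusted limma p of 0.144.

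Among 9 mitochondrial proteases and partners, 1 was higher (4.41% of all tested genes) and none lower (2.84%). The gene called was *Spg7*, a subunit of the inner membrane protease m-AAA, with a log2 fold change of 0.46 and an unadjusted limma p of 0.0403 (adjusted p = 0.682). Its level was low, at 0.440, 0.580 and 1.07 FPKM in control and 1.24, 1.18 and 1.49 FPKM in aminophylline libraries, and the groups did not overlap. *Spg7* passed in 7 of the 16 fits that included it. *Lonp1*, the matrix protease that degrades TFAM, was at 5.60, 7.28 and 9.68 FPKM in control and 9.34, 10.4 and 13.5 FPKM in aminophylline libraries. *Lonp1* overlapped between groups, with a log2 fold change of 0.52, an unadjusted limma p of 0.0539 and, with the replicate block, one of 0.0163. Of 11 other nuclear regulators, 4 were tested and none passed. *Gabpa*, the DNA-binding subunit of the factor whose motif is printed above, was under the filter at 0.183 to 0.386 FPKM. *Ppargc1b*, the relative of *Ppargc1a*, was also under the filter, at 0.542, 0.496 and 0.616 FPKM in control and 0.632, 0.754 and 0.680 FPKM in aminophylline libraries, without overlap between groups.

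**Figure D3:**
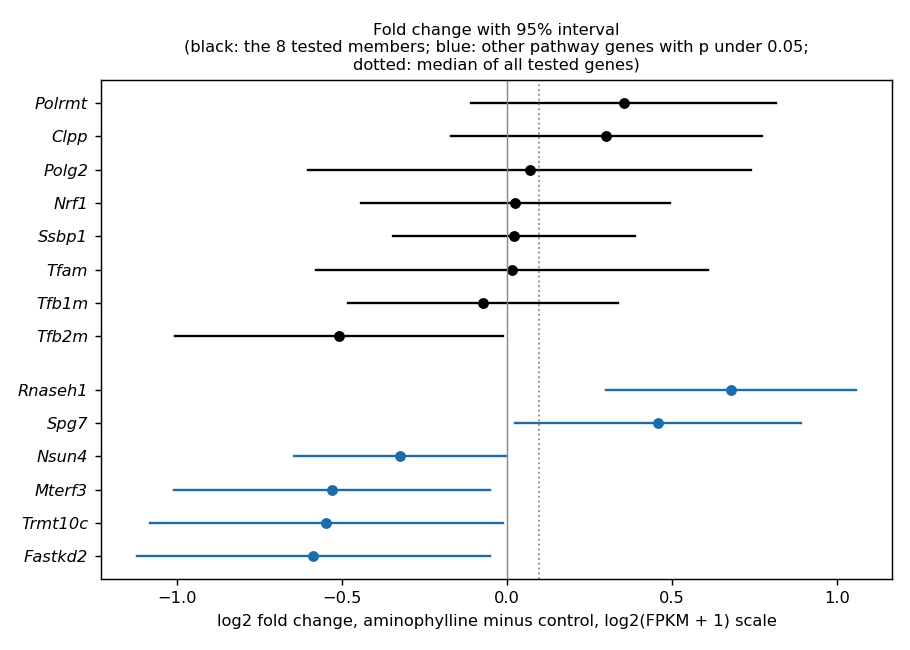
Log2 fold change of aminophylline over control with its 95% interval (limma, log2(FPKM + 1) scale) for the 8 tested genes in black and for the 6 other pathway genes with an unadjusted p under 0.05 in blue, with the median of all tested genes dotted at 0.095. The interval of *Tfb2m* ends at -0.014 and those of the other 7 black genes cross 0, while the interval of *Rnaseh1* runs from 0.30 to 1.06.

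The RNAs that this machinery makes were measured in the same libraries. All 13 mRNAs of the mitochondrial genome were listed and tested, and together they held 0.405%, 0.225% and 0.275% of the reads of control libraries 1, 2 and 3 and 0.236%, 0.269% and 0.311% of those of aminophylline libraries 1, 2 and 3. The aminophylline shares lay inside the control range, and the highest share was that of control library 1. By unadjusted limma p, 1 of the 13 was higher (4.41% of all tested genes) and none was lower, with a median log2 fold change of -0.11. The one called was *ND4L*, a subunit of respiratory complex I, with a log2 fold change of 0.45 and an unadjusted limma p of 0.0414 (adjusted p = 0.682) from only 2 to 13 reads per library. The *ND4L* call was lost under 6 alternative scalings, filters, weights and tests, and when any library other than control library 1 was left out. With the replicate block in limma 2 of the 13 passed, 1 higher and 1 lower, where 9.88% of all tested genes were higher and 4.3% lower in that fit. The most abundant mRNA was *CYTB*, the cytochrome of respiratory complex III, at 1649, 808 and 857 FPKM in control and 813, 842 and 897 FPKM in aminophylline libraries. Control library 1 alone stood above the rest for *CYTB*.

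The FPKM recorded for the mitochondrial mRNAs differed between a stretch of neighbouring genes and the rest of the mitochondrial genome. *COX2*, *ATP8*, *ATP6*, *COX3*, *ND3* and *ND4L*, which are 6 neighbouring genes at chrM:7013-10173, were at 0.477 to 29.2 FPKM, while the other 7 were at 37.5 to 1650 FPKM in every library. This split was present in both groups. Reads from mitochondrial genes can match copies in the nuclear genome as well, and how the authors counted such reads is not given in the sources used here, so levels of these 13 genes are uncertain and the part of nuclear copies was not tested.

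**Figure D4:**
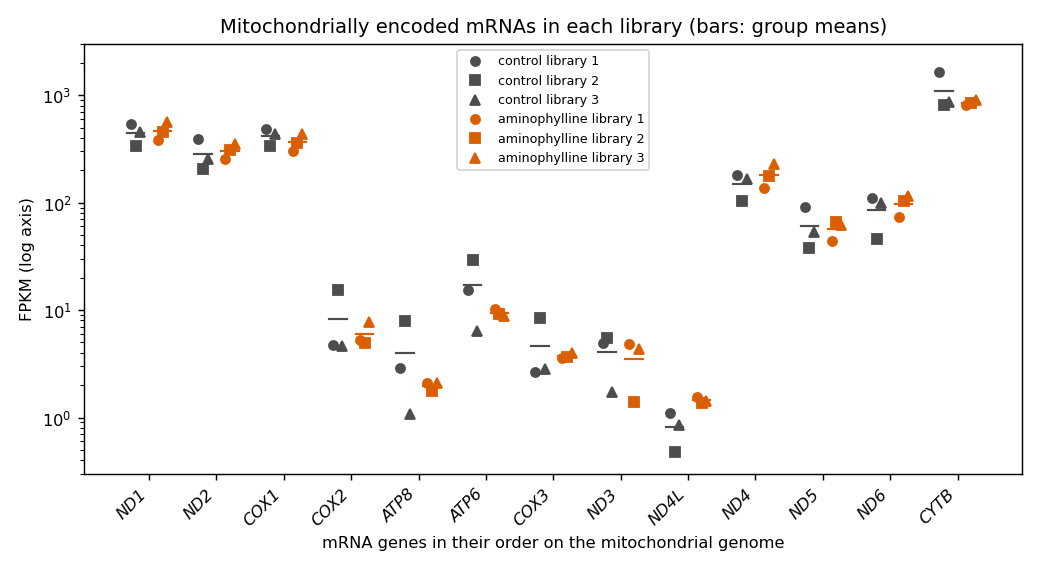
FPKM (log axis) of the 13 mitochondrially encoded mRNAs in their order on the mitochondrial genome, with control libraries in grey, aminophylline libraries in orange and bars at the group means. The 6 genes from *COX2* to *ND4L* lie at 0.477 to 29.2 FPKM and the other 7 at 37.5 to 1650 FPKM in both groups.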

How the data were processed

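The authors deposited 1 table of FPKM values per gene, with 25631 genes and 6 libraries. Per the labels, total RNA was extracted with TRIzol, and the submitters' processing notes name GRCm38 and mm10. The aligner, the counting program, its strand setting and the annotation are not given in the sources used here. Groups and replicate numbers came from the labels. Reads were recovered as whole numbers from ratios of FPKM between libraries, and 100% of 120146 values lay within 0.001 read of a whole number. Genes that reached 1 FPKM in 3 or more libraries were tested two-sided on log2(FPKM + 1) with limma 3.58.1 (R 4.3.3), with its moderated variance and a trend, with Benjamini-Hochberg adjustment over the 10340 tested genes. Ratios of gene pairs were tested with exact permutation tests. The code was tested on simulated data.

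The members, gene lists and tests were chosen with earlier results of these data known. All 10 members were named, with pathway genes at an unadjusted p under 0.05, *Twnk*, *Tefm*, *Lonp1*, *Clpx*, *Gabpa* and *Ppargc1b* in any case, the mitochondrial mRNAs that were highest, lowest or called, 3 oocyte genes, and the 3 genes most like *Tfam*. Same-numbered libraries of the groups deviated together from their group means, with correlations across genes of 0.138, 0.140 and 0.552. The numbers 1 to 3 stand in the labels of both groups, so this fit is given as the replicate block, although no source says what the numbers share. The alternatives were a pseudocount of 0.1, rescaling to a common sum, no filter, a filter at a mean of 5 FPKM, quantile normalization, median centring, an unmoderated model, the replicate block, library weights, voom on the recovered reads, and each library left out. Intervals cover the spread between libraries, and read numbers cover counting only. Gene positions and promoter windows are those of RefSeq (GRCm38.p6), and transcript lengths those of GENCODE. Python 3.11.15, numpy 2.4.6 and pandas 2.3.3 were used.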

Additional observations from a re-analysis of the deposited data

How the results depend on the processing

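Few reads limited *Ppargc1a*, *Polg* and *ND4L*, and 3 libraries a group limited all tests. The number of the 10 genes with an unadjusted limma p under 0.05 was 1 of 8 tested, and it was 2 of 10 with no filter. It was 0 of 5 with a mean FPKM of at least 5, a filter that removed *Tfb2m*. After rescaling to a common sum it was 0 of 8, with *Tfb2m* at an unadjusted limma p of 0.0566. It was 3 with library weights (*Clpp*, *Polrmt* and *Tfb2m*), where 1398 of all 10340 tested genes were called higher and 613 lower. With a library left out it was 0 to 2. It was 2 (*Tfb2m* and *Polrmt*) without control library 2, where 865 of all tested genes were higher and 752 lower, and 0 without any other. For the pathway lists the number was 6, and it was 10 with the replicate block, 14 with library weights and 1 to 9 when a library was left out. It was 2 without control library 1, 3 without aminophylline library 1, and 1 without aminophylline library 2 or 3, where *Rnaseh1* was the gene called. Its split of 2 higher and 4 lower became 8 and 0 without control library 3, where that of all tested genes was 1219 and 255. No gene of the lists was lower without any 1 of the aminophylline libraries. For the mitochondrial mRNAs the number was 1, and it was 0 with no filter, a common sum, quantile normalization, median centring or voom. With a mean FPKM of at least 5 it was 0 of the 9 tested, a filter that removed *ND4L*. The number was 2 with the replicate block, 2 with library weights and 0 to 2 when a library was left out. Over all 10340 tested genes, 750 had an unadjusted p under 0.05 in limma, and with no filter 1404 of 25631 genes did. For the same 10340 genes the number was 1467 with the replicate block (47 of them at an adjusted p under 0.05) and 2011 with library weights. It was 369, 1617 and 1474 without control library 1, 2 or 3 and 704, 329 and 428 without aminophylline library 1, 2 or 3. Of the 750, 456 were higher and 294 lower, a split that became 281 and 292 at a common sum, 347 and 528 after quantile normalization and 281 and 502 after median centring, with the median log2 fold change moving from 0.10 to 0.06, 0.01 and 0.01.

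Log2 fold changes near 0 changed sign. At a common sum, after quantile normalization and after median centring, *Tfam* was at -0.020, -0.085 and -0.067, *Ssbp1* at -0.022, -0.025 and -0.062, and *Nrf1* at -0.014, -0.055 and -0.057, and *Polg2* was at -0.045 after quantile normalization and -0.014 after median centring. *Twnk* was at 0.14 with library weights. With a library left out, the ranges were -0.21 to 0.21 for *Tfam*, -0.043 to 0.092 for *Ssbp1*, -0.10 to 0.16 for *Nrf1*, -0.31 to 0.33 for *Polg2*, -0.31 to 0.075 for *Twnk*, -0.42 to 0.030 for *Clpx*, and -1.28 to 0.090 for the log2 ratio of *Polg2* to *Polg*. Of 322 alternative values of fold changes and ratios, 238 kept their direction and their side of the threshold, 26 changed sign, and 51 lost and 7 gained the threshold. Of 64 alternative counts of genes, 35 stayed within 1.5 times the first count and 29 did not. The paired fit with the replicate block changed no call beyond those given for *Nsun4*, *Lonp1* and the counts above. The causes of these changes were not tested.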

Other observations

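The gene ontology terms in the deposited table give a view of the same machinery that does not use the lists above. The term for the mitochondrial nucleoid, the particle of mitochondrial DNA and protein, was carried by 48 genes, of which 45 were tested, and by 7 of the 10 genes described here (not *Nrf1*, *Ppargc1a* and *Clpp*). By unadjusted limma p, 1 of the 45 was higher (4.41% of all tested genes) and 4 were lower (2.84% of all tested genes), none at an adjusted p under 0.05. The median log2 fold change was 0.12, compared with 0.095 over all tested genes, and 28 of the 45 lay above 0, compared with 6702 of all 10340. The higher gene was *Lrrc59*, and the lower genes were *Tfb2m*, *Fastkd2*, *Trmt10c* and *Hadhb*, which encodes a subunit of the trifunctional enzyme of fatty acid oxidation. *Lrrc59* and *Hadhb* were named after their values were seen, and 3 of the 5 are described above, so the term is not independent of that account.

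Among the genes of the lists whose groups did not overlap, *Mterf4* and *Suclg1* were higher and *Mterf1a*, *Prkaa1* and *Oma1* lower without passing the test. These too were named after their values were seen. The log2 fold changes of *Mterf1a*, *Prkaa1* and *Oma1* were -0.42, -0.23 and -0.31 (adjusted p = 0.688, 0.756 and 0.728 in limma). *Mterf4*, a partner of NSUN4 on the mitochondrial ribosome, was at 149.6, 162.8 and 177.6 FPKM in control and 182.7, 214 and 195 FPKM in aminophylline libraries, a log2 fold change of 0.27 (adjusted p = 0.720 in limma). *Suclg1*, a subunit of succinyl-CoA ligase, was at 33.5, 30.3 and 30.2 FPKM in control and 34.8, 37.9 and 40.6 FPKM in aminophylline libraries, a log2 fold change of 0.26 (adjusted p = 0.728 in limma). In the lists as a whole, 4 of 55 tested genes were higher without overlap (7.51% of all tested genes) and 7 were lower without overlap (4.96%).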
